A study of Mus musculus with 11 samples.

Results

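Macrophage genes were examined in RNA from mouse T cell acute lymphoblastic leukaemia (T-ALL) that arose with or without Utx, a demethylase of histone H3 lysine 27 that is listed as Kdm6a. The genes are 10 markers of tissue macrophages, chosen by symbol: C1qa, C1qb, C1qc, Marco, Cd163, Mrc1, Csf1r, Cd68, Spic and Hmox1. Each symbol is borne by 1 row of the deposited table, which has 37224 gene rows, and 13833 of those rows had at least 100 counts when both pools were added. All 10 members were among these 13833. The leukaemias were started from C57/BL6 blood progenitors that carry the cKit receptor and were given a retrovirus for Notch1-IC, the activated intracellular form of Notch1, before intravenous transplantation into mice. All samples of both genotypes carry that retrovirus. The knockout group holds 5 samples (Utx-/Y, 2 of bone marrow and 3 of spleen) and the wild-type group 6 (Utx+/+ or Utx+/Y, 2 of bone marrow and 4 of spleen), and 1 knockout and 2 wild-type samples are repeat runs. The labels give neither the age of the mice, nor how Utx was deleted, nor the genotype of the recipients.

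The deposited values are 1 pooled count per gene and genotype, with totals of 106445530 (knockout pool) and 108015222 (wild-type pool). The spread between animals, between marrow and spleen or between runs cannot be computed, so every difference below lacks a check against replicates and carries no test. Sex, organ and genotype cannot be told apart where the pools differ in them: by genotype the knockout samples are male and the wild-type samples may be of either sex. The pools did differ in sex-linked RNA. Xist, made in female cells, had a log2 ratio of knockout over wild-type of -8.16. The Y-linked genes Eif2s3y, Ddx3y, Uty and Kdm5d stood at 3.10, 2.65, 3.09 and 4.24. The wild-type pool thus held female RNA, and the part of sex in the ratios below was not tested. Kdm6a, the targeted gene, had 1115 counts (knockout) and 6299 (wild-type), a log2 ratio of knockout over wild-type of -2.48 (95% interval -2.57 to -2.38). These intervals, exact by the Clopper-Pearson method, cover only the error of counting reads. Calls of higher or lower, always for the knockout pool, required at least 100 combined counts, a depth-scaled difference of 2-fold or more and an interval without 0. In bulk RNA, fewer cells of a type and less RNA per cell cannot be told apart.

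Macrophages of the marrow and spleen engulf dying cells, aged red cells and the nuclei that maturing red cells expel. They take up their cargo through scavenger, lectin and complement receptors, digest it in lysosomes, and recycle the iron of haem. Csf1r signalling keeps them alive, and Spic drives the iron-recycling macrophages of the splenic red pulp. The samples are labelled as T cell leukaemia cells, and all 18 T cell and T leukaemia markers had at least 100 counts. Those markers summed to 5193 CPM (counts per 1000000 gene counts) without Utx and 5962 with it. Beside them the 10 macrophage genes summed to 322 and 101 CPM, in the same order, a log2 ratio of 1.67 (1.64 to 1.70). Whether these came from recipient cells or from the transplanted progenitors cannot be told from the counts.

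Of the 10 macrophage genes, 9 were called higher in the knockout pool, none was called lower, and Cd163 was neither. Over all 13833 genes 11.2% were called higher and 5.36% lower. The median log2 ratio of the members was 1.70, a fold of 3.25, against -0.07 over all genes. Cd163 had the lowest log2 ratio of the members, 0.74, and Marco the highest, 2.43. With a minimum of 1.5-fold all 10 were higher, beside 18.9% of all genes, and with 3-fold 8 were, beside 5.94%.

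**Figure D1:**
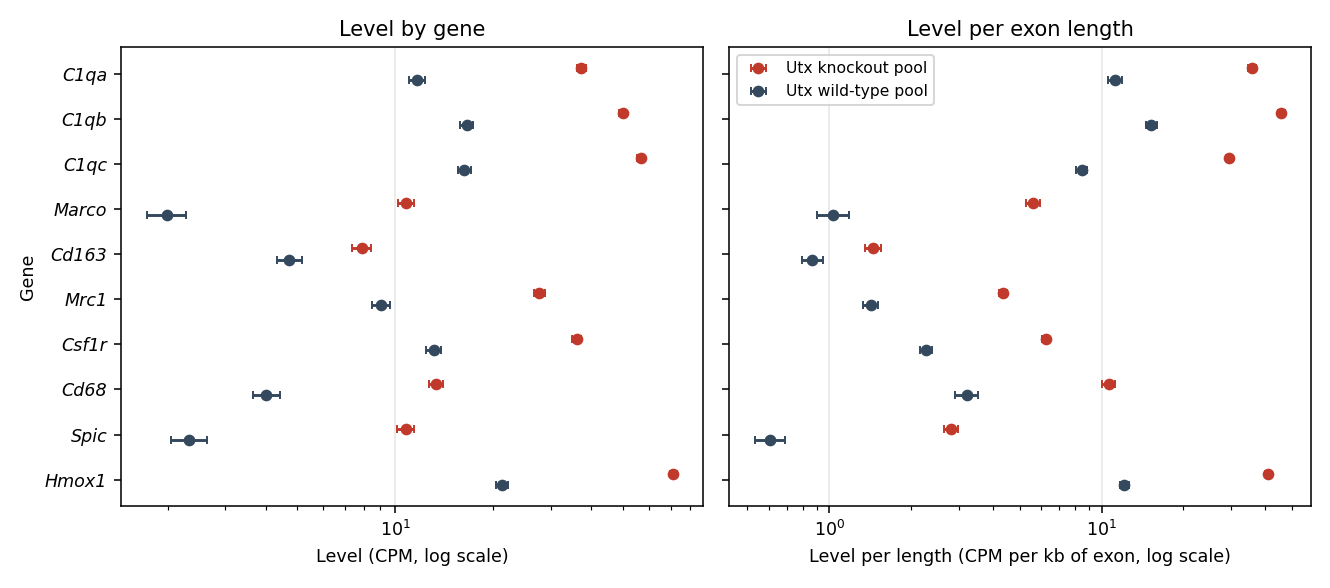
Level of each macrophage gene in the knockout pool (red) and the wild-type pool (dark), in CPM on the left and in CPM per kilobase of exon on the right, both on log axes. Bars are exact 95% Poisson intervals (counting error only), and the knockout point lies to the right of the wild-type point for all 10 genes, with the narrowest gap at Cd163 (7.90 against 4.73 CPM).

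The sequences before the start sites of 4 members are shown because C1qb and C1qc lie side by side, while Marco and Cd163 had the highest and the lowest ratio of the list. They are from RefSeq (GRCm38.p6), and 7 of the 10 members had an entry. Capitals mark GAGGAA or its reverse complement TTCCTC, the core letters bound by PU.1, the ETS factor needed for macrophage development. Bases inside an exon annotated by GENCODE M21 are left out.
Marco (chr1:120505025-120505274, minus strand): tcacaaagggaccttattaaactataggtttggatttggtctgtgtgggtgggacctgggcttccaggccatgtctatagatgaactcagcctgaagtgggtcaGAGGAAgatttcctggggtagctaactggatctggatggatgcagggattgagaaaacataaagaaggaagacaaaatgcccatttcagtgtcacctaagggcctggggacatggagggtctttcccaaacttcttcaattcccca
C1qb (chr4:136886201-136886450, minus strand): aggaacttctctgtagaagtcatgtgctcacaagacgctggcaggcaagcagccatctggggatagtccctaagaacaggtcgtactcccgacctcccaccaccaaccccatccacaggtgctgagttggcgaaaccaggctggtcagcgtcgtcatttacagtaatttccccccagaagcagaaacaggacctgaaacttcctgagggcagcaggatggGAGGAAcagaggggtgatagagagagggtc
C1qc (chr4:136893066-136893164, minus strand): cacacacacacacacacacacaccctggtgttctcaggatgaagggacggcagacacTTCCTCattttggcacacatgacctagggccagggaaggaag
Cd163 (chr6:124304401-124304650, plus strand): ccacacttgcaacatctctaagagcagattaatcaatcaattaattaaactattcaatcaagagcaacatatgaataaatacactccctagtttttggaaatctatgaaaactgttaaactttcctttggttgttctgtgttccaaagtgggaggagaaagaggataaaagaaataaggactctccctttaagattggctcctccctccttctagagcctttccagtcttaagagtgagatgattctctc
GAGGAA was searched on both strands in the 250 bases before each RefSeq start. It was found in 5 of the 7 members' windows (C1qb, C1qc, Marco, Mrc1 and Cd68) and in 23.3% of all 32851 windows of that length. The windows of Cd163 and Spic did not hold these letters. A match describes the letters alone and shows no binding.

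The genes of the C1q chains, which assemble into the molecule that starts the classical complement pathway and tags dying cells for uptake, were all higher in the knockout pool. They lie next to each other on the minus strand of chromosome 4 within 18675 bases (GRCm38 coordinates of GENCODE M21, as for all positions of genes here). C1qb (ENSMUSG00000036905, 136880129 to 136886187) had 5305 counts (knockout) and 1791 (wild-type), or 49.8 and 16.6 CPM; values are given in this order throughout. Its log2 ratio was 1.59 (1.51 to 1.67). C1qc (ENSMUSG00000036896, 136889804 to 136893065) had 6025 and 1762 counts, 56.6 and 16.3 CPM, a log2 ratio of 1.79 (1.72 to 1.87). C1qa (ENSMUSG00000036887, 136895917 to 136898803) had 3959 and 1260 counts, 37.2 and 11.7 CPM, a log2 ratio of 1.67 (1.58 to 1.77). The ratios of the chains lay close together. Those of C1qa and C1qb did not differ beyond counting error (difference in log2 ratio 0.09, -0.04 to 0.21). C1qc lay above C1qb by 0.21 (0.10 to 0.32) and above C1qa by 0.12 (0.00 to 0.24).

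The share of each chain in the C1q counts was close between the pools, but for C1qb and for C1qc the pools' intervals did not overlap. C1qa made up 25.9% of the C1q counts without Utx (Clopper-Pearson 95% interval 25.2 to 26.6) and 26.2% with Utx (24.9 to 27.4). C1qb made up 34.7% (33.9 to 35.5) and 37.2% (35.8 to 38.6). C1qc made up 39.4% (38.6 to 40.2) and 36.6% (35.2 to 38.0). The summed C1q level was 144 CPM without Utx against 44.6 with it, a log2 ratio of 1.69 (1.64 to 1.74).

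Among the 3 scavenger and lectin receptors of the list (Marco, Mrc1 and Cd163), Marco was furthest from equal levels and Cd163 was nearest to them. Marco is a class A scavenger receptor of marginal zone macrophages that binds bacteria and particles (ENSMUSG00000026390, chromosome 1, 120474538 to 120505024, minus strand). It had 1147 and 215 counts, 10.8 against 1.99 CPM, a log2 ratio of 2.43 (2.23 to 2.65). This ratio ranked 374 of 13833 genes. Mrc1, the mannose receptor CD206, was also higher (ENSMUSG00000026712, chromosome 2, 14229392 to 14332057, plus strand). It had 2949 and 977 counts, 27.7 and 9.05 CPM, a log2 ratio of 1.61 (1.51 to 1.72).

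Cd163, the receptor that takes up haemoglobin bound to haptoglobin, was the member that missed the 2-fold minimum (ENSMUSG00000008845, chromosome 6, 124304656 to 124330527, plus strand). It had 841 and 511 counts, 7.90 and 4.73 CPM, a log2 ratio of 0.74 (0.58 to 0.90). In the authors' deposited table its Benjamini-Hochberg q was 6.11e-20, a value from a test on pooled reads. Of all 13833 genes, 15.4% had a higher ratio than Cd163. Its log2 ratio lay below that of each of the other 9 members beyond counting error, by 0.72 (0.53 to 0.90) from Csf1r, the nearest, and by 1.70 (1.43 to 1.97) from Marco.

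Csf1r, the receptor for the macrophage growth factors Csf1 and Il34, was higher in the knockout pool (ENSMUSG00000024621, chromosome 18, 61100598 to 61132149, plus strand). It had 3833 and 1417 counts, 36.0 and 13.1 CPM, a log2 ratio of 1.46 (1.37 to 1.55). Hmgxb3, on the other strand, shares 873 of the 5774 exon bases of Csf1r and had a log2 ratio of 0.56 (0.46 to 0.66) on 2004 and 1383 counts. Whether the authors counted by strand is unknown here, so reads in the shared bases cannot be assigned to either gene and the value of Csf1r is uncertain to that extent. Mrc1 and Csf1r each also hold a microRNA gene on their own strand, outside the exons, and no other member overlapped a gene of GENCODE M21.

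Cd68, Spic and Hmox1, which act inside the cell, were higher as well. Cd68 encodes a lysosomal and endosomal glycoprotein abundant in macrophages (ENSMUSG00000018774, chromosome 11, 69664213 to 69666153, minus strand). It had 1420 and 434 counts, 13.3 and 4.02 CPM, a log2 ratio of 1.73 (1.58 to 1.89). Spic encodes the transcription factor Spi-C, a relative of PU.1 (ENSMUSG00000004359, chromosome 10, 88674772 to 88685015, minus strand). It had 1146 and 252 counts, 10.8 and 2.33 CPM, a log2 ratio of 2.20 (2.01 to 2.41). Its ratio ranked 453 of 13833 genes, next to Marco among the members. Hmox1 encodes haem oxygenase 1, which opens the haem ring and frees its iron (ENSMUSG00000005413, chromosome 8, 75093621 to 75100589, plus strand). It had 7602 and 2296 counts, 71.4 and 21.3 CPM, a log2 ratio of 1.75 (1.68 to 1.82).

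The members formed 3 tiers by ratio. Marco and Spic were highest and did not differ from each other beyond counting error (difference in log2 ratio 0.23, -0.06 to 0.53). Each of them lay above each of C1qc, Hmox1, Cd68, C1qa, Mrc1, C1qb and Csf1r, in 14 of 14 pairs. These 7 genes ran from 1.46 to 1.79, and 11 of their 21 pairs differed beyond counting error. Down this order, neighbours from C1qc to C1qb did not differ, with differences in log2 ratio of at most 0.06 between 1 gene and the next. Csf1r lay below C1qb by 0.13 (0.01 to 0.25), and Cd163 stood alone at the bottom. Of all 45 pairs 34 differed beyond counting error; no correction for the number of pairs was made.

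**Figure D2:**
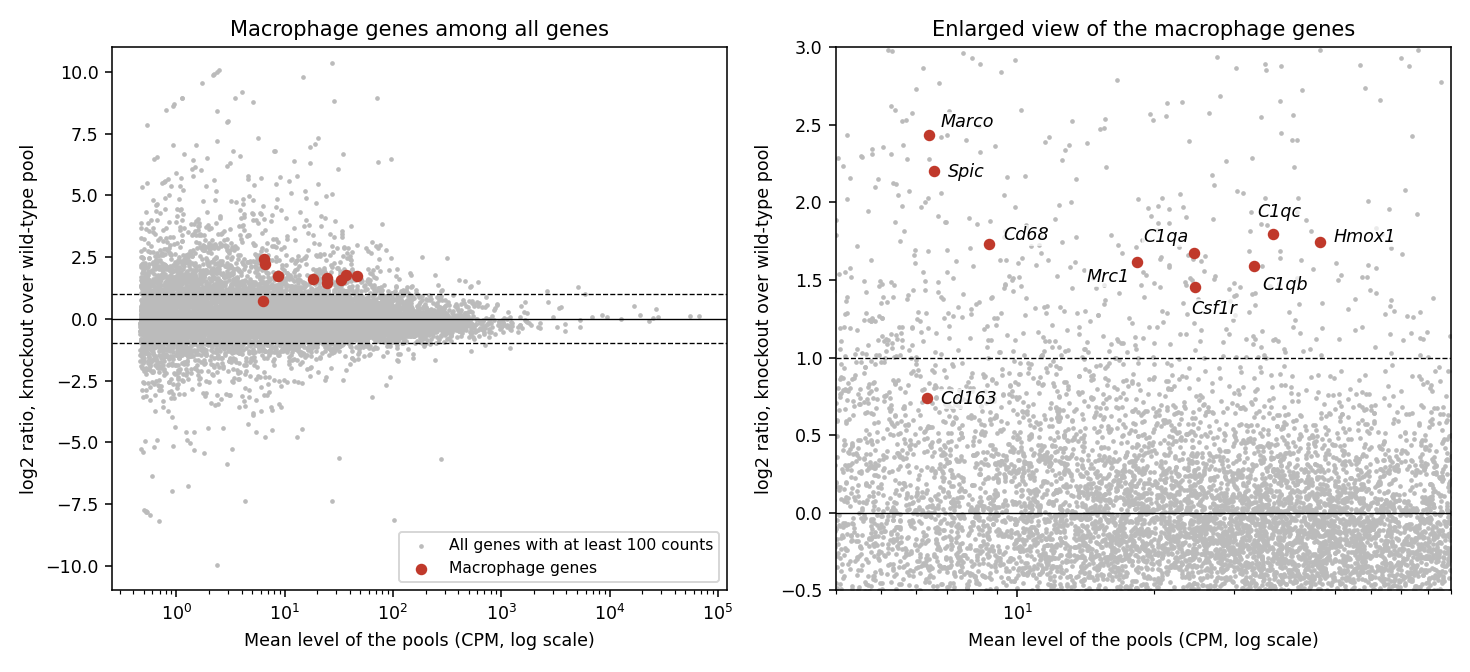
Each point is a gene with at least 100 combined counts, at its mean level of the pools (CPM, log axis) and its log2 ratio of knockout over wild-type; dashed lines mark 2-fold. The right panel enlarges the macrophage genes (red): 9 lie between 1.46 and 2.43 and Cd163 lies at 0.74, below the dashed line.

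Per kilobase of exon, the order of levels was much the same in both pools. C1qb was the most abundant member at 45.8 and 15.2 CPM per kilobase. Hmox1 followed at 40.8 and 12.1, then C1qa at 35.8 and 11.2 and C1qc at 29.3 and 8.45. Cd68 stood at 10.6 and 3.20 and Csf1r at 6.24 and 2.27. Marco was next in the knockout pool at 5.60, above Mrc1 at 4.35, Spic at 2.80 and Cd163 at 1.45, and the intervals of neighbours there did not overlap. In the wild-type pool the lower end was ordered differently: Mrc1 at 1.42, Marco at 1.03, Cd163 at 0.87 and Spic at 0.61. There the intervals of Hmox1 and C1qa overlapped, and so did those of Marco and Cd163. Exon lengths are the merged exons of GENCODE M21 and may differ from those the authors counted on.

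The wider set of tissue macrophage genes, chosen with earlier results of these data known, lay on the same side. Of 36 genes, none of them a member, 31 had at least 100 counts, and 26 of these (83.9%) were called higher and none lower, against 11.2% and 5.36% over all genes. Their median log2 ratio was 1.502. Those with the highest CPM were Apoe, which carries lipids, at 110 and 49.0 CPM (log2 ratio 1.17, 1.12 to 1.21), and Vcam1, an adhesion molecule of red pulp and erythroblastic island macrophages, at 95.8 and 37.0 CPM (1.37, 1.32 to 1.43). The highest ratios were those of Fcgr1, the high-affinity receptor for IgG, on 272 and 43 counts (2.67, 2.21 to 3.18), and Clec7a, the beta-glucan receptor Dectin-1, on 223 and 37 counts (2.60, 2.11 to 3.16). The lowest ratios among the called genes were those of Tyrobp, the signalling adaptor DAP12, on 2330 and 1114 counts (1.09), and Cd300lf, a receptor for lipids of dying cells, on 519 and 238 counts (1.14).

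Some receptors for dying cells and further receptors for IgG were called higher as well. Mertk and Axl, kinases that drive the uptake of apoptotic cells, stood at log2 ratios of 1.52 (1.31 to 1.74) and 1.67 (1.54 to 1.81). Timd4, which binds phosphatidylserine, stood at 1.32 on 104 and 42 counts. Fcgr3 and Fcgr4, receptors for IgG, stood at 1.45 and 1.82. The macrophage gene Emr1, which encodes F4/80, was at 5.02 and 1.77 CPM (1.502, 1.26 to 1.75). Cd5l, a secreted protein of tissue macrophages, was at 17.7 and 5.71 CPM (1.63), and Treml4, found on red pulp macrophages, stood at 1.71.

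The other 5 genes of that set with enough counts were not called. Siglec1, the sialoadhesin of marginal metallophilic and marrow macrophages, was at 157 and 108 counts (0.56, 0.20 to 0.93). The transcription factor gene Maf stood at 0.56. Stab1, a scavenger receptor shared with sinusoidal endothelium, and Gpnmb, a lysosomal glycoprotein, stood below 0 at -0.36 and -0.97. Markers of particular niches were near the limit of detection: Cd209b, a lectin of marginal zone macrophages, had 0 counts in both pools, which allows up to 0.0282 and 0.0278 CPM. Clec4f, a marker of liver macrophages, had 1 and 3 counts, and Vsig4 14 and 9. Of these marginal zone genes, Marco was counted in both pools and Cd209b in neither.

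Beside C1q, part of the complement system was higher. Of 23 genes 20 had at least 100 counts, with 10 called higher (50.0%, against 11.2% of all genes), none lower and a median log2 ratio of 1.03. Next to C1q in the cascade, the proteases C1ra and C1s stood at 1.70 (1.31 to 2.11) and 2.23 (1.57 to 3.01), and C4b at 1.54. C2 was at 0.83 and not called. C3, the central component, was at 34.3 and 8.82 CPM (1.96, 1.85 to 2.06). The inhibitor Serping1, which blocks C1r and C1s, stood at 2.36. Cfp, properdin of the alternative pathway, and C5ar1, the receptor for C5a, had the lowest ratios of the called genes, 1.12 and 1.37. Cd93, a receptor once described as binding C1q, was at 69.1 and 11.7 CPM (2.56, 2.48 to 2.65). The genes of the list with the highest CPM, Calr and C1qbp, were at 0.34 and -0.11. Itgam, a chain of complement receptor 3 that granulocytes also carry, stood at 1.79 and its partner Itgb2, which T cells also carry, at 0.44.

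Ligands of Csf1r and the factors that set macrophage identity gave a mixed picture. Of 19 genes 17 had at least 100 counts, with 7 called higher (41.2%, against 11.2% of all genes), 1 lower and a median log2 ratio of 0.54. Csf1 was called higher on 91 and 25 counts (1.86, 1.23 to 2.59), while Il34 stood at 0.75 (0.48 to 1.02) on 306 and 185. The transcription factor genes Tfec (2.20), Klf4 (1.71), Mitf (1.22) and Cebpa (1.07) were called higher, as was Csf2rb, the shared beta chain of cytokine receptors such as that for Csf2 (1.02). PU.1, listed as Sfpi1, had 1176 and 820 counts (0.54, 0.41 to 0.67), and Irf8 at 0.02 (-0.15 to 0.19). Spib, a relative of PU.1 in B cells and plasmacytoid dendritic cells, was lower on 41 and 339 counts (-3.01, -3.53 to -2.56). Ets2 and Runx1, with the highest CPM of the list, stood at -0.06 and 0.34. The interval of Spic, 2.01 to 2.41, did not overlap those of PU.1 and Spib, the relatives of Spi-C.

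Genes that handle haem and iron beside Hmox1 were mostly not called. Of 25 genes 24 had at least 100 counts, with 5 higher (20.8%, against 11.2% of all genes), 1 lower and a median log2 ratio of 0.33. The higher ones were Nqo1 (1.30), Srxn1 (1.24), Lrp1 (1.19), Slc40a1 (1.18) and Blvrb (1.15). Slc40a1, ferroportin, exports iron from macrophages and was at 39.9 and 17.6 CPM. Lrp1 takes up haem bound to haemopexin, and Blvrb reduces biliverdin, the product of Hmox1. Nqo1 and Srxn1 are antioxidant genes under Nrf2, as Hmox1 is, while Gclc and Txnrd1 of the same group were at -0.10 and 0.18. Bach1, which represses Hmox1, was at -0.43 (-0.49 to -0.36), and Hmox2, the constitutive haem oxygenase, at -0.35 (-0.40 to -0.29). Trf, transferrin, was lower at 21.2 and 63.2 CPM (-1.57, -1.64 to -1.51). Fth1 and Tfrc, with the highest CPM, stood at 0.29 and 0.87. Beside these genes, the erythroid markers, several of which use the same iron, summed to 28056 and 14595 CPM, and their part in the haem and iron values was not tested.

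Relatives of the receptors, and lysosomal genes, had medians nearer to that of all genes than the 10 macrophage genes had. Of 18 scavenger and mannose receptor relatives, 12 had at least 100 counts. Of the 12, 4 were higher (33.3%, against 11.2% of all genes) and none lower, with a median log2 ratio of 0.00. The 4 were Clec10a, a galactose-binding lectin, on 324 and 22 counts (3.87, 3.28 to 4.60), Colec12 (3.38), Stab2 (1.64) and Scara3 (1.34). Cd5 and Cd6, which share the scavenger receptor domain with Cd163 and are T cell genes, were at -0.28 and -0.72. Lamp2 and Lamp1, lysosomal relatives of Cd68, had the highest CPM of the list and stood at 0.94 and -0.14. Of 20 lysosomal hydrolase genes, 19 had at least 100 counts. The higher ones were 3 (15.8%, against 11.2% of all genes): Ctsh at 1.62, Ctsc at 1.03 and Hexa at 1.01. None of the 19 genes was lower, and their median was 0.39. Psap and Ctsb, with the highest CPM of these, stood at -0.24 and 0.38. Ctsd, another lysosomal protease of macrophages, was at 205 and 190 CPM (0.11, 0.08 to 0.14).

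**Figure D3:**
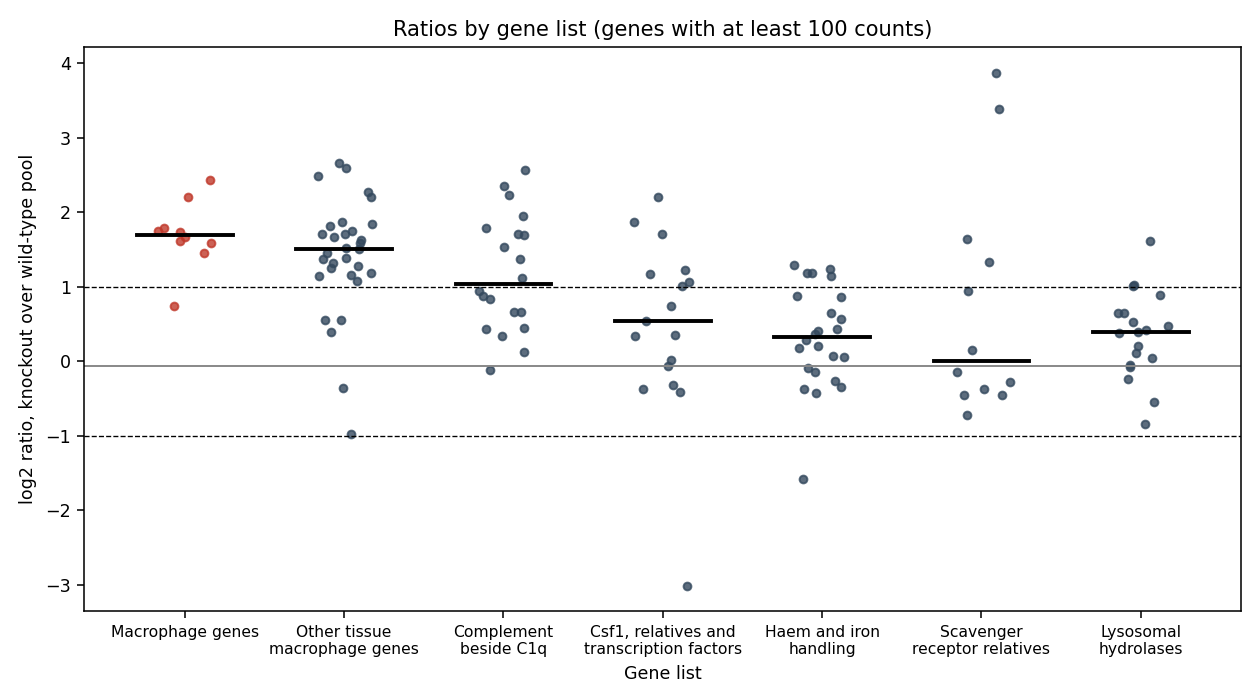
Each point is the log2 ratio of knockout over wild-type of 1 gene with at least 100 combined counts, by gene list, with the macrophage genes in red; black bars are medians, dashed lines mark 2-fold and the grey line marks the median of all genes (-0.07). The medians run from 1.70 for the macrophage genes and 1.502 for other tissue macrophage genes down to 0.00 for the relatives of the scavenger receptors.

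Markers of several other cell types were also higher in the knockout pool, and their part in the ratios of the macrophage genes was not tested. Over all genes 11.2% were called higher and 5.36% lower, and the counts of each marker list below are to be read beside these shares. Of 12 monocyte markers 7 were higher and none lower (median 1.11), and the list summed to 1740 and 649 CPM. Ace, among its genes with the highest CPM, stood at 2.48. Of 13 neutrophil markers with at least 100 counts, 4 were higher (median 0.61), with sums of 2607 and 2122 CPM; S100a9 and Ngp stood at 0.49 and -0.09. The log2 ratio of the sums was thus 0.30 for the neutrophil markers and 1.42 for the monocyte markers, beside 1.67 for the macrophage genes. Across all marker lists it ran from -0.53 (osteoclast) to 3.51 (mast cell and basophil). Dendritic cell markers had 1 of 11 higher (9.09%) and a median of -0.13, and their sums were 309 and 250 CPM. Of these Ccr9, which thymocytes also carry, gave 77.3% and 63.1%, and without it the log2 ratio of the sums was -0.40. Cd74 stood at -0.08, and Cd209a had no count in 1 pool.

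Osteoclasts, which share the Csf1r lineage, gave no common direction. Of 5 measured osteoclast markers 2 were higher; the median was 0.39 while the ratio of the sums was -0.53, on 116 and 168 CPM. Acp5 and Nfatc1 were at -0.84 and -0.63, and Calcr, Oscar and Dcstamp had no count in 1 pool. Sinusoidal endothelium, which also carries Mrc1, had 3 of 8 markers higher (median 0.62), with sums of 88.8 and 69.4 CPM; Pecam1 and Eng stood at 0.22 and 0.56, and Lyve1 at 2.98. Stromal markers had 6 of 9 higher and 1 lower (median 1.42), while their sums, 93.9 and 133 CPM, had a log2 ratio of -0.50. Pdgfrb (-1.48) gave 33.7% and 66.4% of them, and without it the log2 ratio of the sums was 0.48. Col1a2, the stromal marker with the next highest CPM, stood at -0.37.

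Red cell, platelet and lymphoid markers differed among themselves. Of 13 erythroid markers 4 were higher and none lower (median 0.67), with Hba-a1 at 1.27 and Hbb-b1 at 1.00; alpha globin copies share reads. Of 7 measured megakaryocyte markers 4 were higher (median 1.02; Itgb3 1.11, Itga2b 1.02), with sums of 40.1 and 17.8 CPM. NK cell markers had 5 of 7 higher (median 1.88). Their sums were 235 and 247 CPM, of which Gzma (-0.29) gave 82.2% and 95.7%, and without it the log2 ratio of the sums was 1.96; Prf1 stood at 2.27. Mast cell and basophil markers had 4 of 4 measured genes higher, with sums of 18.2 and 1.59 CPM and Cpa3 and Mcpt8 at 3.36 and 3.75. B cell markers had 0 of 4 higher and 1 lower, with sums of 6.28 and 7.07 CPM and Cd79a and Cd79b at -0.05 and 0.98. T cell and T leukaemia markers had 2 of 18 higher (11.1%, against 11.2% of all genes), 1 lower and a median of -0.25. Of these Tcf7 and Notch1 stood at 0.37 and -0.22. No marker of these lists was at 0 in both pools.

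**Figure D4:**
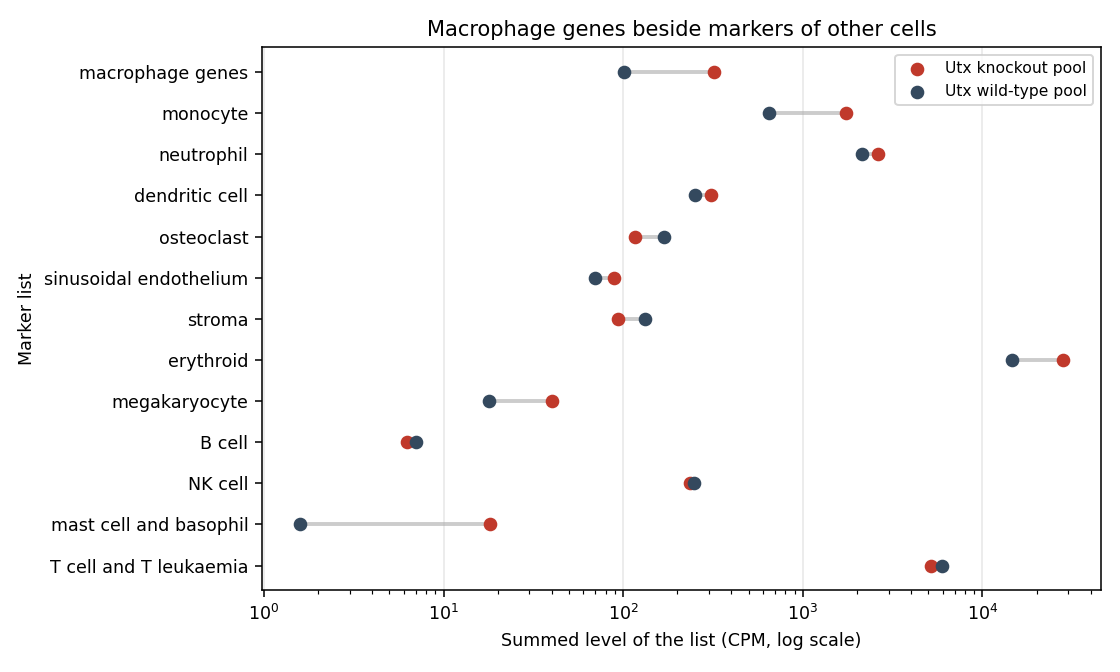
Summed level of the 10 macrophage genes and of each marker list in the knockout pool (red) and the wild-type pool (dark), in CPM on a log axis, with a grey line joining the pools. The macrophage genes stand at 322 and 101 CPM and the T cell markers at 5193 and 5962; the osteoclast, stromal, B cell, NK cell and T cell lists have the wild-type point on the right.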

How the data were processed

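RNA was poly(A)-selected, strand-marked by the dUTP method and sequenced to 50 bases from 1 end, per the labels' protocols; the series' design text also mentions ribosomal depletion and sorted populations. CASAVA, TopHat and mm9 are named, per the submitters' processing notes. Counting tool, strand setting and annotation: not given in the sources used here. A single DEGseq table was deposited by the authors. Its whole read counts are pooled by genotype, per the file headers; the samples behind each pool are unknown. The first count column was taken as the knockout pool from the order in the table's title. The deposited log2 fold changes, z score, p-values and q-values are the authors' own, per the file headers; the score was not used. Columns with per-sample values numbered 0.

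Depth for CPM was the summed count of all gene rows, and log2 ratios had a pseudocount of 0.5 counts. Intervals are 95% Clopper-Pearson or Poisson intervals, or exact conditional intervals for pairs of members; they treat each read as its own molecule and cover counting error only. Members, gene lists (6) and marker lists (12) were chosen with earlier results of these data known. All members were named; of each list the called genes with the 2 highest and 2 lowest ratios and the 2 most abundant genes, and of marker lists the 2 most abundant and any at 0. Further genes were named after their values were seen, and some genes of the lists are not reported here. Ahsp was not matched, and Ebf1, borne by more than 1 row, was left out. The calls were tested on simulated counts with Poisson error only, so that test cannot address the spread between animals, organs or runs. Python 3.11.15, SciPy 1.17.1, R 4.3.3 and edgeR 4.0.16 (scaling factors only) were used.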

Additional observations from a re-analysis of the deposited data

How the results depend on the processing

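The count of 9 macrophage genes higher and 0 lower held with upper quartile, TMM and median of ratios scaling, with a depth without mitochondrial and erythroid genes, with a pseudocount of 5, with count minimums of 1, 20 and 500, and with the authors' q-values of either kind in place of the intervals. Most of these settings could not have changed the count. The lowest combined count of a member was 1352, and the largest Benjamini-Hochberg q of a member was 6.11e-20. The shifts from these scalings and that depth, at most 0.09, were smaller than the distance of any member from the 2-fold minimum. The count was 10 with a 1.5-fold minimum, which 18.9% of all genes passed, and 8 with a 3-fold minimum, which 5.94% passed and Csf1r and Cd163 did not. The median log2 ratio ran from 1.67 for the summed counts to 1.79 without mitochondrial and erythroid genes. With the summed T cell markers as depth, an alternative chosen after seeing the data that shifts all genes by 0.20, it was 1.90, and the signs of list medians nearer 0 than that are not to be read. All 10 ratios stayed above 0 under every scaling and pseudocount tried, Cd163 between 0.73 and 0.94. With a 3-fold minimum, called genes numbered 14 in place of 26 among other tissue macrophage genes, 4 in place of 8 among Csf1r ligands and factors, 0 in place of 6 among haem and iron genes and 1 in place of 3 among lysosomal genes, which had 7 with 1.5-fold. With at least 500 counts, the ligands and factors had 2 and the receptor relatives 2 in place of 4. No paired analysis was possible because the table holds pooled counts with no replicate number; for the same reason no sample could be left out. Depth limits genes such as Vsig4 and Clec4f, whose intervals were wide.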
